A study of Mus musculus with 54 samples.

Results

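Proline, glutamate and asparagine metabolism was followed through 7 enzyme genes chosen by symbol: Asns, Aldh18a1, Pycr1, Prodh, Glul, Got1 and Gpt2. All 7 were listed once in each of the 4 deposited tables, which hold 26264 genes for the fibroblasts and 32534 to 35003 for the lungs, and all 7 passed the filter on low values in every table. Poly(A) RNA had been sequenced from 54 mouse libraries in 17 groups, a study of how the branched-chain amino acids (BCAA: valine, leucine and isoleucine) and the branched-chain keto acids made from them (BCKA) bear on lung fibroblasts and on lungs injured with bleomycin. No sample carried an engineered allele. In culture, 24 libraries of primary mouse lung fibroblasts, from donors 6 to 8 weeks old, fell into 8 groups of 3: BCAA-free medium with BCKA returned, BCAA-free medium with BCAA returned, BCAA-free medium and complete medium, each with transforming growth factor β1 (TGF-β1, 20 ng/mL) or with PBS. The cells spent 24 h in their medium and then 48 h with TGF-β1, the factor that turns fibroblasts into myofibroblasts, or with PBS. Whole lungs of male C57BL/6 mice 10 to 12 weeks old came from 3 experiments. In the water experiment (3 lungs a group) the groups were bleomycin at 1.25 mg/kg with 3 mM BCAA in the drinking water from 7 days before, the same bleomycin with normal water, and PBS with normal water, all taken on day 14. In the diet experiment (4 lungs a group) they were bleomycin at 1.25 mg/kg with a diet lacking BCAA for 14 days from day 7, the same bleomycin with normal diet, and PBS with normal diet, all taken on day 21. In the BT2 experiment (3 lungs a group) they were bleomycin at 3.5 mg/kg with 20 mg/kg BT2 from day 3 for 11 days, the same bleomycin with 10% DMSO, and PBS lungs, all taken on day 14. BT2 inhibits the kinase that switches off BCKA oxidation. The title of those PBS lungs names DMSO while the design text gives them normal diet only, so whether they received DMSO is not settled by the labels.

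Proline is made from glutamate. Aldh18a1 encodes the mitochondrial synthase that turns glutamate into pyrroline-5-carboxylate, Pycr1 encodes a mitochondrial reductase that turns this into proline, and Prodh encodes the dehydrogenase that begins proline breakdown. Asns makes asparagine from aspartate and glutamine, Glul makes glutamine from glutamate and ammonia, Got1 is the cytosolic aspartate transaminase and Gpt2 the mitochondrial alanine transaminase. BCAA transaminases pass the amino group of BCAA to make glutamate, and collagen is rich in proline, so these enzymes lie where BCAA nitrogen and matrix production meet. Asns is a textbook target of the transcription factor ATF4, which is translated more when amino acids are scarce and binds composite C/EBP-ATF sites.

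The promoters of the 7 genes were searched for the letters TGATGNAA, the core of such a composite site, on both strands, in the 300 bases from 250 before to 50 after the start given by RefSeq in build GRCm38.p6. All 7 genes matched the RefSeq table, with 1 promoter each, and 3 promoters held the letters, those of Asns, Pycr1 and Got1. Over all promoters of the same length 1304 of 32851 held them (3.97%), and 1219 of 27025 genes had at least 1 such promoter. The 3 are shown because they hold the letters. Under TGF-β1, Asns and Got1 were higher and Pycr1 was lower in BCAA-free than in complete medium. Capitals mark the matched letters, and each sequence runs 5′ to 3′ in the direction of its gene. The Asns window is chr6:7693160-7693459 on the minus strand, with the match beginning 23 bases before the start. The Pycr1 window is chr11:120643699-120643998 on the minus strand, with the match beginning 103 bases before the start. The Got1 window is chr19:43524556-43524855 on the minus strand, and its match lies on the opposite strand to the gene and begins 102 bases before the start.
Asns: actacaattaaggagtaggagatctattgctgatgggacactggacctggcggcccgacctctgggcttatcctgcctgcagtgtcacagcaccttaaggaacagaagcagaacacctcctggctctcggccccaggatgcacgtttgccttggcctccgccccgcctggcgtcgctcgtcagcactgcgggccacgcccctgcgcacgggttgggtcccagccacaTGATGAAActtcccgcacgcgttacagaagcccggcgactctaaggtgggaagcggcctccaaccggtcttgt
Pycr1: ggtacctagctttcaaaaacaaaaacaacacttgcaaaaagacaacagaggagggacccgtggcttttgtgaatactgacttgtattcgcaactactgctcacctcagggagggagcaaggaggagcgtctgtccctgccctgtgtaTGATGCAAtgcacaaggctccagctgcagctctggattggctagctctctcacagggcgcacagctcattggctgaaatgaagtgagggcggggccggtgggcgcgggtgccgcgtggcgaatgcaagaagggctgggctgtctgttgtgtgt
Got1: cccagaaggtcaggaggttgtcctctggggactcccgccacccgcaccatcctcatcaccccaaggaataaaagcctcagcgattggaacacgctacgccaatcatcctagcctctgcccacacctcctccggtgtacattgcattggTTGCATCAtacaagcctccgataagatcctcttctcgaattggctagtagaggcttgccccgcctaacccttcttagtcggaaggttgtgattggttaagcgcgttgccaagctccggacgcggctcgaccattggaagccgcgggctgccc
The windows of Aldh18a1 on chromosome 19, Prodh on chromosome 16, Glul on chromosome 1 and Gpt2 on chromosome 8 did not hold these letters. A match is a description of the sequence only, and the files hold no measurement of binding.

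The deposited values are TPM, a transcript level per length scaled to 1000000 per library, so levels of different genes may be set side by side, while the sequencing depth of each library is unknown. Genes above 0 numbered 15003 to 16653 per fibroblast library and 17554 to 25632 per lung, and mitochondrial transcripts had a share of 3.67 to 17.3% in the lungs and were not listed for fibroblasts. The culture libraries held 10234 to 56050 TPM of 5 fibroblast markers (Col1a1, Col1a2, Pdgfra, Dcn and Lum). They held at most 1.99 TPM of 4 endothelial markers and 11.1 TPM of 5 macrophage markers. Alveolar type 2 markers summed to 40.4 to 85 TPM in these libraries. Club cell markers summed to 12.9 to 30.6 TPM under PBS and to 0 to 2.31 TPM under TGF-β1. In complete medium the fibroblast sum was 37699 to 42094 TPM with TGF-β1 and 13004 to 13948 TPM with PBS. It thus moved with treatment within fibroblast cultures, so in lungs a change in this sum is not a count of fibroblasts. One culture library, TGF-β1 in BCAA-free medium replicate 1, stood apart with 56050 TPM of fibroblast markers, against 10932 and 14722 TPM in the other replicates of its group. Every lung held alveolar type 2 markers, at 2257 to 75294 TPM, and also 49.6 to 1987 TPM of 7 cardiac muscle markers. The extraction protocol in the labels speaks of heart tissue, whereas each tissue sample is labelled lung. The PBS lungs of the diet experiment stood apart in several markers, given with their results. One lung with bleomycin and BCAA-free diet, replicate 3, listed 17554 genes above 0 and 16.5% mitochondrial transcripts, against 24329 to 25632 genes and 4.38 to 5.66% in the other lungs of its group. Nothing in the labels says that culture replicates came from separate donors, so p-values measure the spread between these libraries, which may be technical. Means are given ± SD with n = 3 (n = 4 in the diet experiment). Differences are on the log2(TPM + 1) scale, as the estimate ± its standard error (SE), and each adjusted p is Benjamini-Hochberg adjusted over all genes of a table in limma, two-sided, with a call under 0.05.

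TGF-β1 moved all 7 enzymes in fibroblasts, and the medium set how far and, for Prodh, in which direction. In complete medium 5 enzymes rose (Asns, Aldh18a1, Pycr1, Got1 and Gpt2) and 2 fell (Prodh and Glul). Of all 13084 genes tested there, 12.2% rose and 36.4% fell, and 21.3% and 23% did after centring, which sets the median log2 ratio of each library to the mean library to 0. In BCAA-free medium 6 enzymes rose and 1, Glul, fell, where 29.2% of all genes rose and 34.9% fell. The difference between these 2 responses was itself tested: all 7 enzymes passed, and in BCAA-free medium 5 responded more positively and 2 (Pycr1 and Glul) more negatively. Of all genes, 29.2% went up by this measure and 18.4% went down, and 23.5% and 23.4% after centring. Under PBS, BCAA-free against complete medium, none of the 7 passed in limma, while 0.91% of all genes did; at an unadjusted p under 0.05 there were 3 (Asns, Pycr1 and Glul), beside 7.54% of all genes. The median over all genes shifted with centring by -0.19 log2 for TGF-β1 in complete medium and by 0.12 log2 for the difference between the responses, and no call or direction given here for the 7 changed with it apart from Asns under PBS, which then passed.

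**Figure D1:**
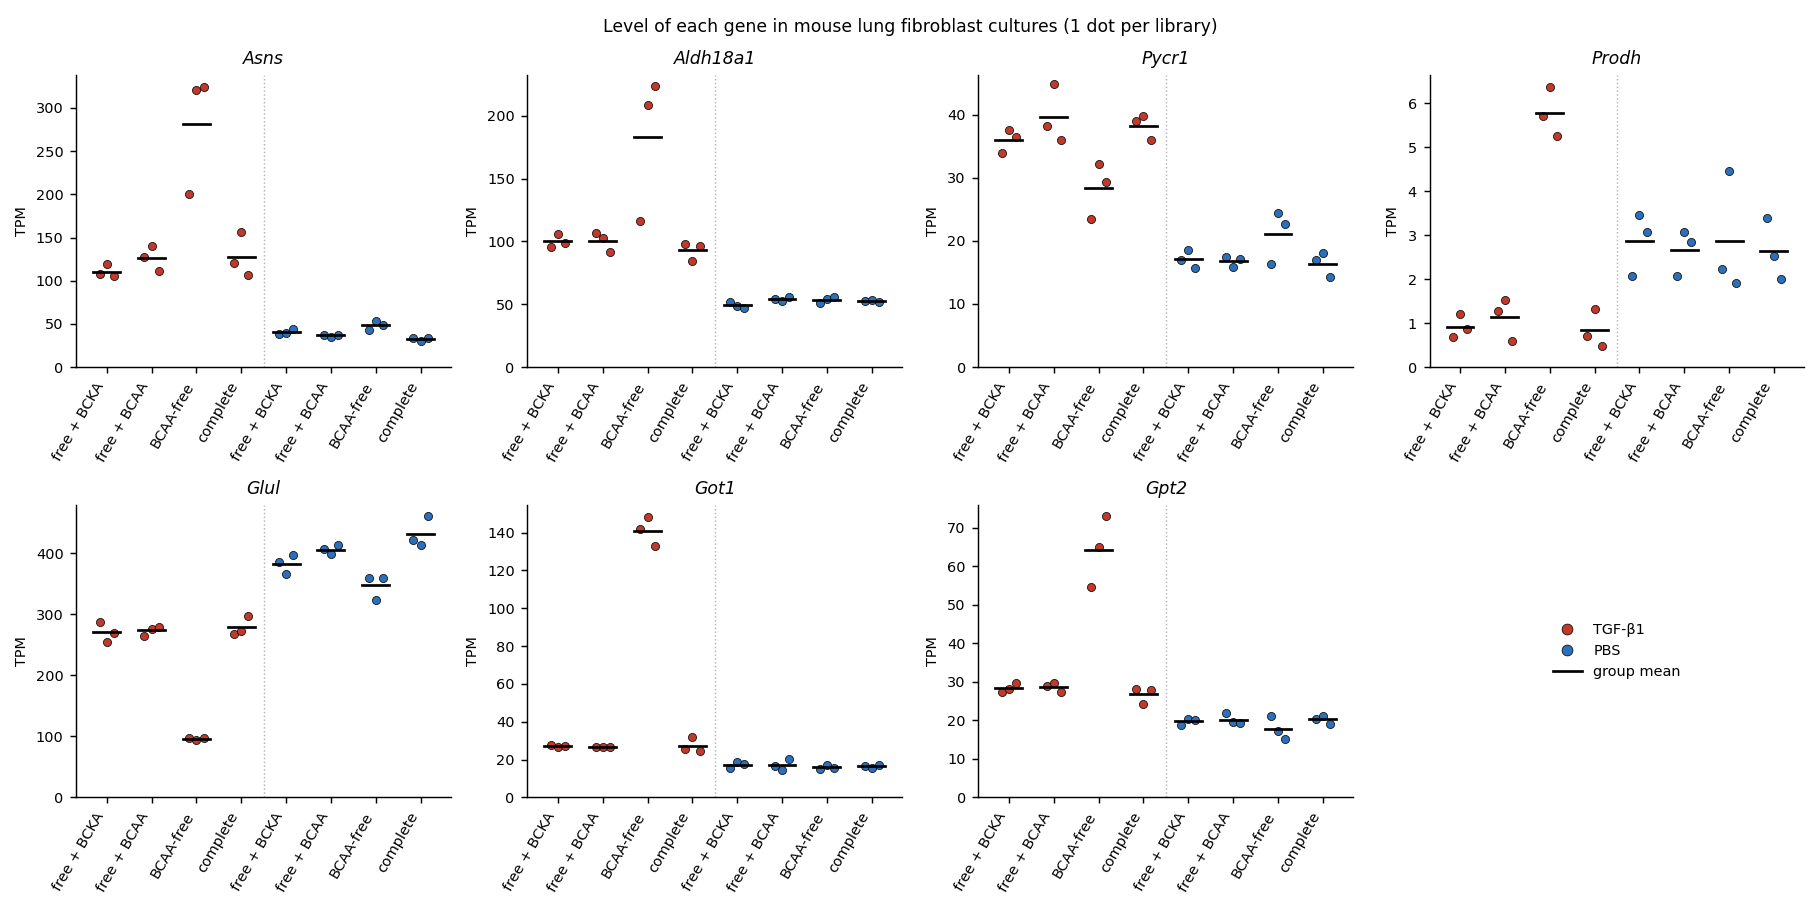
TPM of each gene (vertical axes, each starting at 0) in the 24 fibroblast libraries, with TGF-β1 cultures in red and PBS cultures in blue, ordered by medium along the horizontal axis; black lines are means of 3 libraries. BCAA-free medium with TGF-β1 stands apart from the other media with TGF-β1, with Got1 at 133 to 148 TPM and Glul at 94.8 to 97.4 TPM.

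Asparagine synthetase was the enzyme most strongly raised by TGF-β1 in complete medium. Under TGF-β1, Asns stood at 200, 321 and 324 TPM in BCAA-free medium and at 121, 156 and 107 TPM in complete medium. Under PBS it stood at 42.7, 53.6 and 48.5 TPM in BCAA-free medium and at 34.3, 30.1 and 33.7 TPM in complete medium. All 4 groups were separate from each other. TGF-β1 raised Asns by 2.49 ± 0.15 log2 in BCAA-free medium (adjusted p = 3.49e-12) and by 1.92 ± 0.15 log2 in complete medium (adjusted p = 8.2e-10). The response was 0.57 ± 0.22 log2 larger in BCAA-free medium (adjusted p = 0.0344). That call was lost when any of 8 libraries was left out, at 0.45 to 0.58 log2 with adjusted p of 0.0512 to 0.104: replicate 1 or 3 of PBS in complete medium, of TGF-β1 in complete medium and of PBS in BCAA-free medium, and replicate 2 or 3 of TGF-β1 in BCAA-free medium. Without the library that stood apart the difference was 0.80 ± 0.17 log2 (adjusted p = 0.000289). Under TGF-β1, BCAA-free medium itself gave 1.12 ± 0.15 log2 over complete medium (adjusted p = 1.95e-06), where 60.3% of all genes passed. Under PBS the same difference in medium was 0.54 ± 0.15 log2 and did not pass (adjusted p = 0.115, 95% interval 0.23 to 0.86).

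The first and the last enzyme of proline synthesis parted under TGF-β1 when BCAA were removed. Aldh18a1 stood at 116, 209 and 224 TPM under TGF-β1 in BCAA-free medium and at 97.8, 84.8 and 96.3 TPM under TGF-β1 in complete medium. Under PBS its 6 values in these media lay between 51.0 and 55.6 TPM. The replicate that stood apart, at 116 TPM, was lower than the other libraries of its group and still above every complete-medium library. TGF-β1 raised Aldh18a1 by 1.69 ± 0.15 log2 in BCAA-free medium (adjusted p = 2.41e-09) and by 0.81 ± 0.15 log2 in complete medium (adjusted p = 0.000157). The response was 0.89 ± 0.22 log2 larger in BCAA-free medium (adjusted p = 0.0019), and 1.19 ± 0.11 log2 larger without that replicate.

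Pycr1 had its highest levels under TGF-β1 in media that held BCAA or BCKA. Under TGF-β1 it stood at 23.5, 32.1 and 29.3 TPM in BCAA-free medium and at 39.0, 39.8 and 35.9 TPM in complete medium. Under PBS it stood at 16.3, 24.4 and 22.6 TPM in BCAA-free medium and at 16.9, 18.1 and 14.2 TPM in complete medium. In BCAA-free medium the TGF-β1 and PBS libraries overlapped, whereas in complete medium they were well apart. The rise with TGF-β1 was 0.42 ± 0.14 log2 in BCAA-free medium (adjusted p = 0.0111) and 1.18 ± 0.14 log2 in complete medium (adjusted p = 2.81e-07). The call in BCAA-free medium was lost without PBS replicate 1 (0.25 log2, adjusted p = 0.112) or TGF-β1 replicate 2 (0.32 log2, adjusted p = 0.0588), and in a fit of only the compared groups (adjusted p = 0.143). The response was 0.76 log2 lower in BCAA-free medium (-0.76 ± 0.19 log2, adjusted p = 0.00255). Under TGF-β1, BCAA-free medium lowered Pycr1 by comparison with complete medium (-0.43 ± 0.14 log2, adjusted p = 0.00929; 0.0875 in a fit of only these groups).

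Prodh, the breakdown enzyme, changed direction with the medium. It was the lowest of the 7 in fibroblasts. Under TGF-β1 it stood at 5.71, 6.36 and 5.26 TPM in BCAA-free medium and at 0.701, 1.33 and 0.487 TPM in complete medium. Under PBS it stood at 2.23, 4.46 and 1.91 TPM in BCAA-free medium and at 3.38, 2.53 and 2.0 TPM in complete medium. TGF-β1 libraries lay above all PBS libraries in BCAA-free medium and below all PBS libraries in complete medium. The change with TGF-β1 was 0.86 ± 0.23 log2 in BCAA-free medium (adjusted p = 0.00237) and -0.99 ± 0.23 log2 in complete medium (adjusted p = 0.00111). These responses differed by 1.86 ± 0.32 log2 (adjusted p = 7.19e-05). At levels this low, adding 1 TPM before taking logs makes the differences smaller than the ratios of TPM.

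Glutamine synthetase was the most abundant of the 7 in every group but one, TGF-β1 in BCAA-free medium, where Asns, Aldh18a1 and Got1 were higher by mean TPM. Glul stood at 97.4, 94.8 and 97.2 TPM under TGF-β1 in BCAA-free medium and at 267, 273 and 297 TPM under TGF-β1 in complete medium. Under PBS it stood at 360, 323 and 360 TPM in BCAA-free medium and at 422, 413 and 461 TPM in complete medium. Each of these groups was separate from the next. TGF-β1 lowered Glul in BCAA-free medium (-1.84 ± 0.08 log2, adjusted p = 2.68e-15) and less so in complete medium (-0.63 ± 0.08 log2, adjusted p = 5.37e-07), a difference of -1.21 ± 0.11 log2 (adjusted p = 7.81e-09). Under PBS, BCAA-free medium gave -0.31 ± 0.08 log2 at the threshold (adjusted p = 0.05), which was not called. It passed with no filter on low values (adjusted p = 0.0272) and did not after centring (-0.30 log2, adjusted p = 0.134).

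The transaminases rose together and mostly where BCAA were absent. Got1 stood at 142, 148 and 133 TPM under TGF-β1 in BCAA-free medium and at 25.6, 31.9 and 24.7 TPM under TGF-β1 in complete medium. Under PBS its 6 values in these media lay between 15.1 and 17.4 TPM. TGF-β1 raised it by 3.06 ± 0.11 log2 in BCAA-free medium (adjusted p = 3.92e-16) and by 0.70 ± 0.11 log2 in complete medium (adjusted p = 2.72e-05). The difference of 2.36 ± 0.16 log2 was the largest of the 7 (adjusted p = 1.07e-10).

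Gpt2 stood at 54.5, 65.0 and 73.0 TPM under TGF-β1 in BCAA-free medium and at 28.2, 24.3 and 27.9 TPM under TGF-β1 in complete medium. Its PBS values were 21.1, 17.3 and 15.1 TPM in BCAA-free medium and 20.4, 21.2 and 19.1 TPM in complete medium. The TGF-β1 groups were separate from each other and from PBS. TGF-β1 raised Gpt2 by 1.79 ± 0.11 log2 in BCAA-free medium (adjusted p = 6.74e-12) and by 0.39 ± 0.11 log2 in complete medium (adjusted p = 0.00767), a difference of 1.40 ± 0.16 log2 (adjusted p = 3.7e-07).

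**Figure D2:**
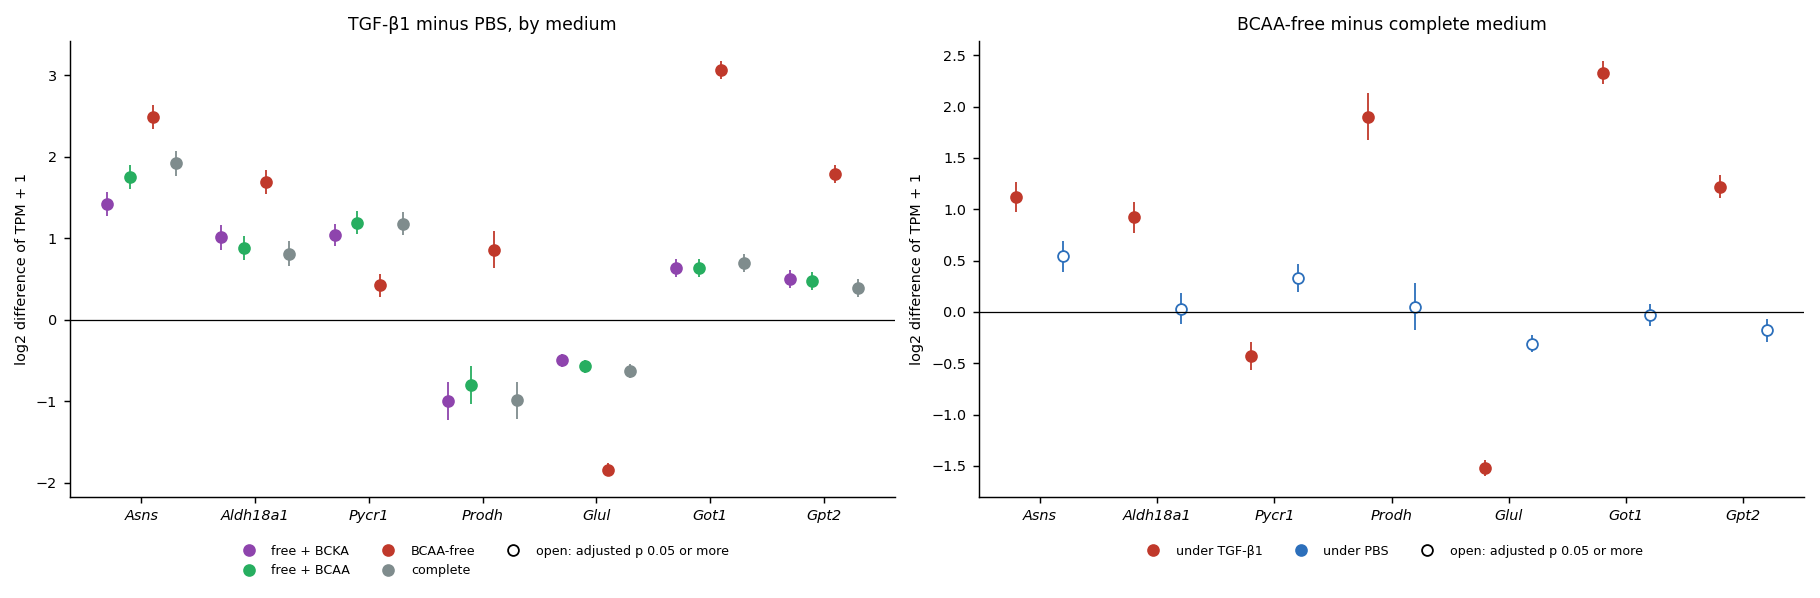
Differences on the log2(TPM + 1) scale (vertical axes) with bars of 1 SE for each of the 7 genes; filled points passed the threshold and open points did not. At left, TGF-β1 minus PBS in each of 4 media, where the BCAA-free points stand away from the other media, as for Got1 at 3.06 log2; at right, BCAA-free minus complete medium under TGF-β1 and under PBS, where no PBS point passed.

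With either BCAA or BCKA returned to the free medium, levels under TGF-β1 were close to those of complete medium. With BCKA returned, TGF-β1 libraries held 108, 119 and 105 TPM of Asns, 95.9, 106 and 99.1 TPM of Aldh18a1, and 33.9, 37.6 and 36.4 TPM of Pycr1. With BCAA returned they held 128, 140 and 111 TPM of Asns, 107, 103 and 91.3 TPM of Aldh18a1, and 38.2, 44.8 and 36.0 TPM of Pycr1. Asns and Aldh18a1 with either addition lay below every BCAA-free TGF-β1 library, and Pycr1 lay above every one. Prodh stood at 0.675 to 1.20 TPM with BCKA and at 0.589 to 1.53 TPM with BCAA, Glul at 254 to 288 and at 265 to 280 TPM, Got1 at 26.4 to 27.6 and at 26.7 to 26.9 TPM, and Gpt2 at 27.3 to 29.8 and at 27.3 to 29.6 TPM.

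Against BCAA-free medium under TGF-β1, all 7 enzymes changed with each addition, 2 higher (Pycr1 and Glul) and 5 lower, beside 25.1% of all genes higher and 33.4% lower with BCKA, and 25% higher and 33.3% lower with BCAA. The falls ran, with BCKA and with BCAA, to -2.34 and -2.35 log2 for Got1, -1.83 and -1.69 for Prodh, -1.31 and -1.12 for Asns, -1.14 and -1.13 for Gpt2, and -0.81 and -0.80 for Aldh18a1. Glul rose by 1.47 ± 0.08 log2 with BCKA and by 1.49 ± 0.08 log2 with BCAA. The rise of Pycr1 with BCKA was 0.35 ± 0.14 log2 (adjusted p = 0.0341). It was lost without TGF-β1 replicate 1 in BCAA-free medium (0.22 log2, adjusted p = 0.151) and without replicate 2 or 3 with BCKA (0.31 and 0.34 log2, adjusted p = 0.0966 and 0.076), and in a fit of only these groups (adjusted p = 0.114).

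None of the 7 passed in limma between BCKA and BCAA returned, where 0.268% of all genes did, nor between either addition and complete medium under TGF-β1, where 0.611% (BCKA) and 0.0153% (BCAA) of all genes did. At an unadjusted p under 0.05 there were 0 of the 7 in each of these 3 comparisons, beside 3.89%, 8.84% and 2% of all genes. A p above the threshold does not show equal levels, and the 95% intervals give the size that was not resolved. For BCKA minus BCAA these were -0.22 to 0.25 log2 for Got1, -0.18 to 0.14 for Glul, -0.51 to 0.13 for Asns and -0.61 to 0.34 for Prodh. TGF-β1 against PBS gave 5 higher and 2 lower with each addition, the same genes in the same directions as in complete medium. Of all genes, 11.5% rose in each, 34.3% fell with BCKA and 33.2% fell with BCAA. After centring 19.7% rose and 20.1% fell with BCKA, and 19.5% rose and 20.8% fell with BCAA. The fall of Prodh with BCAA returned did not pass without TGF-β1 replicate 3 (-0.60 log2, adjusted p = 0.0567). Under PBS no enzyme passed in limma against BCAA-free medium with either addition, beside 0.665% of all genes with BCKA and 0.26% with BCAA. At an unadjusted p under 0.05 there were 0 with BCKA and 3 with BCAA (Asns, Pycr1 and Glul), beside 6.76% and 5.88% of all genes.

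The order of the culture groups differed between the enzymes. Asns, Aldh18a1, Got1 and Gpt2 had BCAA-free TGF-β1 highest, then the other TGF-β1 groups with ranges that overlapped, then the PBS groups, with no overlap between these 3 levels. Among the PBS groups ranges overlapped for Got1 and Gpt2. For Aldh18a1 they overlapped too, apart from BCKA returned (46.8 to 52 TPM) against BCAA returned (52.4 to 56.1 TPM). For Asns they were separate between BCKA returned (38.3 to 44.4 TPM), BCAA returned (35.2 to 37.4 TPM) and complete medium (30.1 to 34.3 TPM), while the BCAA-free range overlapped that with BCKA. Glul ran nearly the other way, lowest at 96.5 ± 1.46 TPM under TGF-β1 in BCAA-free medium and highest at 432 ± 25.5 TPM under PBS in complete medium. Pycr1 had all TGF-β1 groups above the PBS groups by mean, with BCAA-free TGF-β1 (28.3 ± 4.39 TPM) the lowest of them, and its range overlapped that of PBS in the same medium. Prodh had BCAA-free TGF-β1 highest (5.78 ± 0.554 TPM). Next came the 4 PBS groups, with overlapping ranges and group means of 2.64 to 2.87 TPM. The other TGF-β1 groups were lowest, with group means of 0.84 to 1.13 TPM.

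Across the 24 culture libraries the correlation of log2(TPM + 1), which the groups largely set, was 0.96 between Asns and Aldh18a1, 0.96 between Got1 and Gpt2 and -0.98 between Glul and Got1. Pycr1 and Prodh, the final synthetic and the first breakdown step, had a correlation of -0.49, and Pycr1 and Got1 one of 0.42. Among 10990 genes with a mean of at least 5 TPM in some group, those most like Asns were Bcat1 (0.991), the cytosolic BCAA transaminase, Mthfd2 (0.988), a mitochondrial folate enzyme, and Larp1b (0.978). Most like Aldh18a1 were Ptprb (0.984), Slc7a5 (0.984), a transporter of large neutral amino acids, and Plk2 (0.982). Those most like Got1 were Ghitm (0.991), Shmt2 (0.990), the mitochondrial serine hydroxymethyltransferase, and Nars (0.989), the asparaginyl-tRNA synthetase. The closest to Gpt2 were Slc20a1 (0.974), Cttn (0.973) and Nfe2l1 (0.973). Pycr1 was followed most closely by Tnfrsf23 (0.970), Gcnt2 (0.957) and Coro1c (0.956), Prodh by Adsl (0.941), Slc25a26 (0.938) and Gatb (0.933), and Glul by Plat (0.991), Gpx3 (0.989) and S100a4 (0.989). These correlations are over libraries that share groups and describe likeness of pattern only.

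The other genes of these pathways were counted from lists that do not include the 7. Of 10 genes of the ATF4 branch of the amino acid response, all 10 rose with TGF-β1 in BCAA-free medium (median 3.00 log2, against -0.06 over all genes tested), while 6 rose and 1, Atf3, fell in complete medium (median 0.65 log2, against -0.20). Of all genes, 29.2% rose and 34.9% fell in BCAA-free medium. In complete medium 12.2% rose and 36.4% fell, or 21.3% and 23% after centring. Trib3, a pseudokinase induced by ATF4, stood at 240 ± 85.1 TPM with TGF-β1 and 5.12 ± 1.17 TPM with PBS in BCAA-free medium, a rise of 5.26 ± 0.23 log2 (adjusted p = 5.09e-15). The stress factor Ddit3 averaged 186 ± 68.0 TPM with TGF-β1 and 16.2 ± 2.24 TPM with PBS in BCAA-free medium, while it had 16.8 TPM with each in complete medium (adjusted p = 0.877). Atf4 itself averaged 387 ± 127 TPM with TGF-β1 and 90.1 ± 16.5 TPM with PBS in BCAA-free medium. With BCKA or BCAA returned under TGF-β1, all 10 fell relative to BCAA-free medium (medians -1.98 and -1.91 log2, against -0.07 over all genes), and under PBS none of the 10 passed in limma between BCAA-free and complete medium (1 at an unadjusted p under 0.05). Of all genes, 33.4% fell with BCKA and 33.3% with BCAA. Under PBS 0.91% of all genes passed, and 7.54% had an unadjusted p under 0.05. The fall of Atf3 in complete medium did not pass after centring (adjusted p = 0.125). Without the library that stood apart, all 10 again rose with TGF-β1 in BCAA-free medium (median 2.98 log2, against 0.03) and all 10 fell with each addition (medians -2.23 log2 with BCKA and -2.16 log2 with BCAA).

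Related proline enzymes did not all move as Aldh18a1 did. With TGF-β1 in BCAA-free medium, of 5 tested genes 3 rose and 2 fell, beside 29.2% of all genes higher and 34.9% lower. Those that rose included Pepd, a peptidase that frees proline, and Pycrl. Those that fell were Oat, ornithine aminotransferase, which makes the same intermediate from ornithine, and Aldh4a1, which completes proline breakdown. Oat averaged 212 ± 46.0 TPM with TGF-β1 and 892 ± 44.8 TPM with PBS in BCAA-free medium (-2.09 ± 0.11 log2, adjusted p = 2.08e-13), and it fell in complete medium also (-1.07 ± 0.11 log2). Aldh4a1 averaged 16.5 ± 1.41 TPM with TGF-β1 and 44.5 ± 5.12 TPM with PBS in BCAA-free medium (-1.37 ± 0.09 log2). Prodh and Aldh4a1, consecutive steps of proline breakdown, thus moved in opposite directions there. In complete medium Oat and Aldh4a1 fell and the other 3 did not pass, beside 12.2% of all genes higher and 36.4% lower. Prodh2, listed for the fibroblasts, did not pass the filter on low values and was not tested.

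Of 16 other glutamate and glutamine genes, 10 rose and 4 fell with TGF-β1 in BCAA-free medium, and 3 rose and 2 fell in complete medium. For this list and the next, the shares over all genes were 29.2% risen and 34.9% fallen in BCAA-free medium. In complete medium they were 12.2% and 36.4%, or 21.3% and 23% after centring. Bcat1 averaged 139 ± 32.9 TPM with TGF-β1 and 18.9 ± 1.12 TPM with PBS in BCAA-free medium (2.79 ± 0.13 log2, adjusted p = 2.1e-14). Psat1, the transaminase of serine synthesis, averaged 346 ± 61.2 TPM with TGF-β1 and 50.5 ± 3.29 TPM with PBS there (2.74 ± 0.11 log2). Cad, the first enzyme of pyrimidine synthesis, rose in BCAA-free medium (1.20 ± 0.11 log2) and fell in complete medium (-0.77 ± 0.11 log2) with TGF-β1. Of 9 other asparagine and aspartate genes, 6 rose and 1 fell with TGF-β1 in BCAA-free medium, and 4 rose and 1 fell in complete medium. Ass1, which joins aspartate to citrulline, averaged 230 ± 15.6 TPM with TGF-β1 and 18.9 ± 0.326 TPM with PBS in BCAA-free medium (3.53 ± 0.10 log2). The asparaginase gene Aspg fell in both media (-3.06 ± 0.20 log2 in BCAA-free and -1.78 log2 in complete medium), opposite to Asns.

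**Figure D3:**
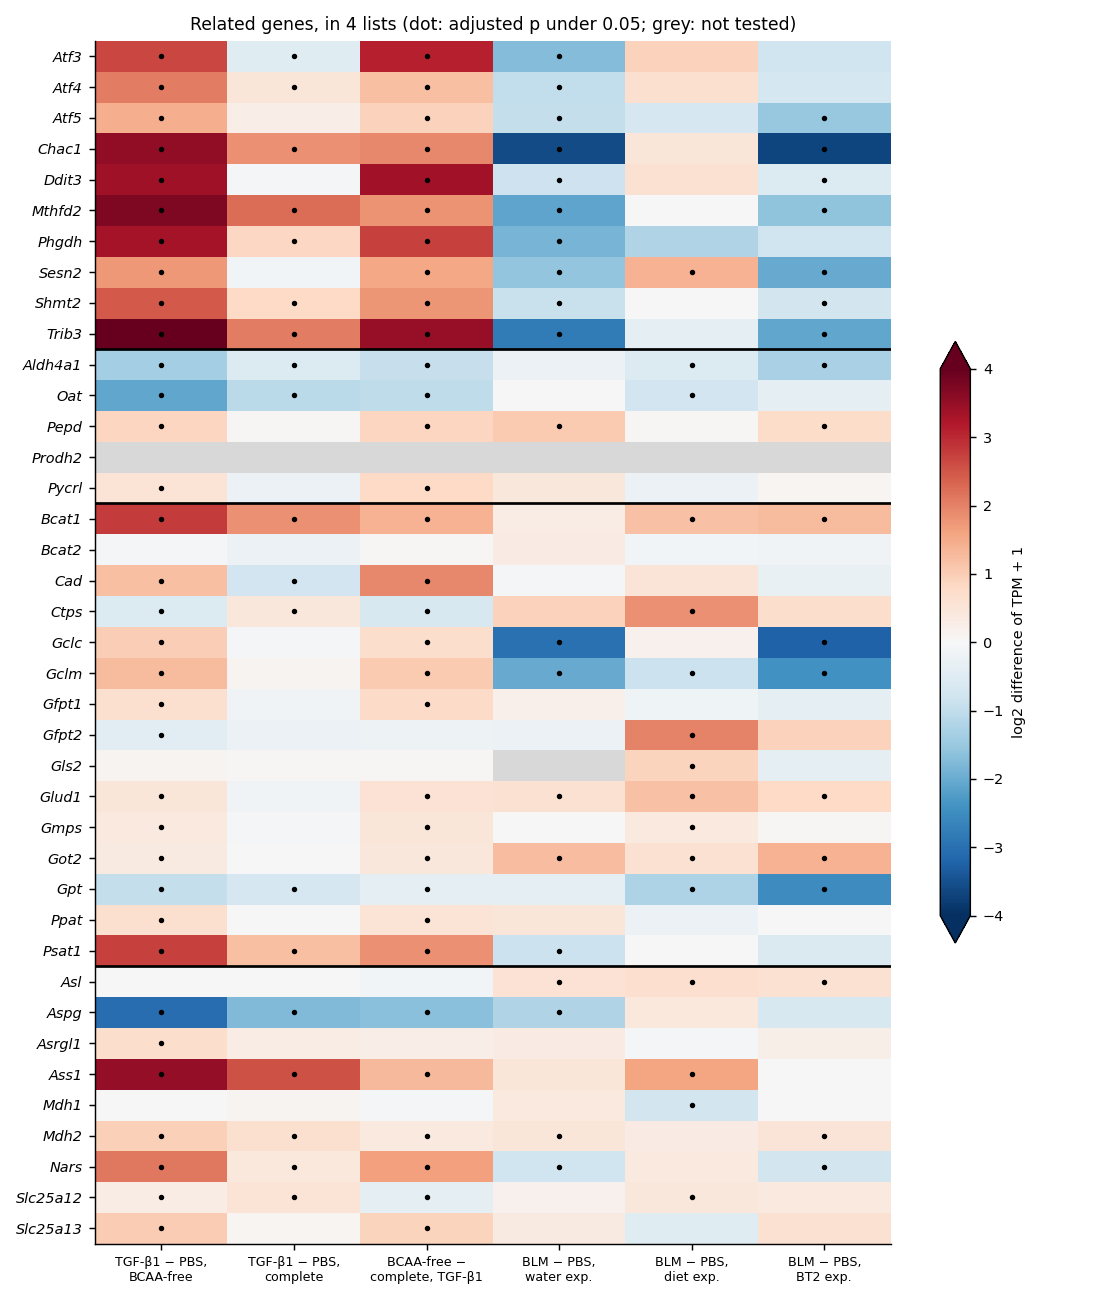
Differences on the log2(TPM + 1) scale (colour, cut at 4 in either direction) of related genes of 4 lists, not all of them shown, in 6 comparisons (columns); horizontal lines part, top to bottom, the ATF4 branch, other proline, other glutamate and glutamine, and other asparagine and aspartate genes, and a dot marks an adjusted p under 0.05. All 10 genes of the ATF4 branch were higher with TGF-β1 in BCAA-free medium, beside 29.2% of all genes. All 10 were lower with bleomycin in the water experiment, beside 7.08% of all genes.

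Without the library that stood apart, the counts with TGF-β1 in BCAA-free medium were 3 risen and 2 fallen of the 5 other proline genes. They were 10 and 3 of the 16 glutamate and glutamine genes, and 6 and 1 of the 9 asparagine and aspartate genes. The medians of these lists were 0.37, 0.54 and 0.56 log2, against 0.03 over all genes.

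Type I collagen, the proline-rich matrix protein, differed widely between that library and its group. Col1a1 was at 27677, 4495 and 6052 TPM under TGF-β1 in BCAA-free medium and at 24346, 21669 and 24435 TPM under TGF-β1 in complete medium. Under PBS it was at 5008, 4342 and 4151 TPM in BCAA-free medium and at 4393, 4938 and 4643 TPM in complete medium. Replicate 1 of the first group thus lay above every complete-medium library, while the other 2 lay near the PBS libraries. In the same library Got1 stood at 142 TPM, against 148 and 133 TPM in the rest of its group, and Glul at 97.4 TPM, against 94.8 and 97.2 TPM. Prodh stood at 5.71 TPM, against 6.36 and 5.26 TPM. The other enzymes were lowest of their group there. Asns stood at 200 TPM, against 321 and 324 TPM, and Aldh18a1 at 116 TPM, against 209 and 224 TPM. Gpt2 stood at 54.5 TPM, against 65.0 and 73.0 TPM, and Pycr1 at 23.5 TPM, against 32.1 and 29.3 TPM. With all 3 libraries, TGF-β1 against PBS in BCAA-free medium gave 1.02 ± 0.37 log2 for Col1a1 (adjusted p = 0.0203), and without replicate 1 it gave 0.22 ± 0.13 log2 and did not pass (adjusted p = 0.146). The response in BCAA-free minus that in complete medium was -1.31 ± 0.52 log2 with all libraries (adjusted p = 0.0435) and -2.12 ± 0.18 log2 without replicate 1 (adjusted p = 6.9e-10).

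In whole lungs bleomycin lowered most of the 7 enzymes in the water and BT2 experiments, and none was called higher in any of the 3. In the water experiment 5 fell (Asns, Aldh18a1, Prodh, Glul and Gpt2), beside 7.08% of all genes lower and 14.8% higher, or 12.3% and 14.3% after centring. In the BT2 experiment the same 5 fell, beside 13.3% lower and 17.3% higher. In the diet experiment 2 fell (Asns and Gpt2), beside 12.3% lower and 48.7% higher, or 25.3% and 24.3% after centring, which shifted the all-gene median by 0.56 log2. At an unadjusted p under 0.05 the diet and BT2 experiments gave the same enzymes, beside 64.9% and 42.4% of all genes. The water experiment added Pycr1, which was higher, beside 35.6% of all genes. In a bulk lung, fewer cells of a type and less RNA per cell cannot be told apart. Cell type markers moved with bleomycin: 3 club cell markers summed to 50967 to 110920 TPM with bleomycin and 139529 to 249694 TPM with PBS in the water experiment, to 24870 to 29452 and 120512 to 290476 TPM in the diet experiment, and to 11593 to 24637 and 106694 to 151399 TPM in the BT2 experiment. Cardiac muscle markers summed to 88.0 to 196 TPM with bleomycin and 180 to 324 TPM with PBS in the water experiment, to 57.3 to 106 and 915 to 1987 TPM in the diet experiment, and to 94.4 to 121 and 625 to 1569 TPM in the BT2 experiment. Macrophage markers went the other way, with 491 to 695 and 150 to 190 TPM, 774 to 863 and 90.8 to 137 TPM, and 1036 to 1212 and 164 to 189 TPM in these experiments. In the diet experiment endothelial markers summed to 1339 to 1949 TPM with bleomycin and 100 to 182 TPM with PBS, and alveolar type 1 markers to 3492 to 4664 TPM with bleomycin and 655 to 1103 TPM with PBS. Fibroblast markers, Col1a1 and Col1a2 among them, summed to 617 to 880 TPM with bleomycin and 188 to 321 TPM with PBS in the water experiment. Their sums were 1928 to 2632 and 182 to 275 TPM in the diet experiment, and 1800 to 2292 and 222 to 262 TPM in the BT2 experiment. Alveolar type 2 markers were higher with bleomycin in the diet experiment (18709 to 26320 TPM with bleomycin and 8435 to 12643 TPM with PBS), lower in the BT2 experiment (2257 to 15280 and 46662 to 59576 TPM) and overlapped in the water experiment (33896 to 47565 and 39576 to 40513 TPM). Mitochondrial transcripts made 4.41 to 5.29% of TPM with bleomycin and 12.2 to 17.3% with PBS in the diet experiment, while their ranges overlapped in the others. The part of these shifts in the enzyme values was not tested.

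**Figure D4:**
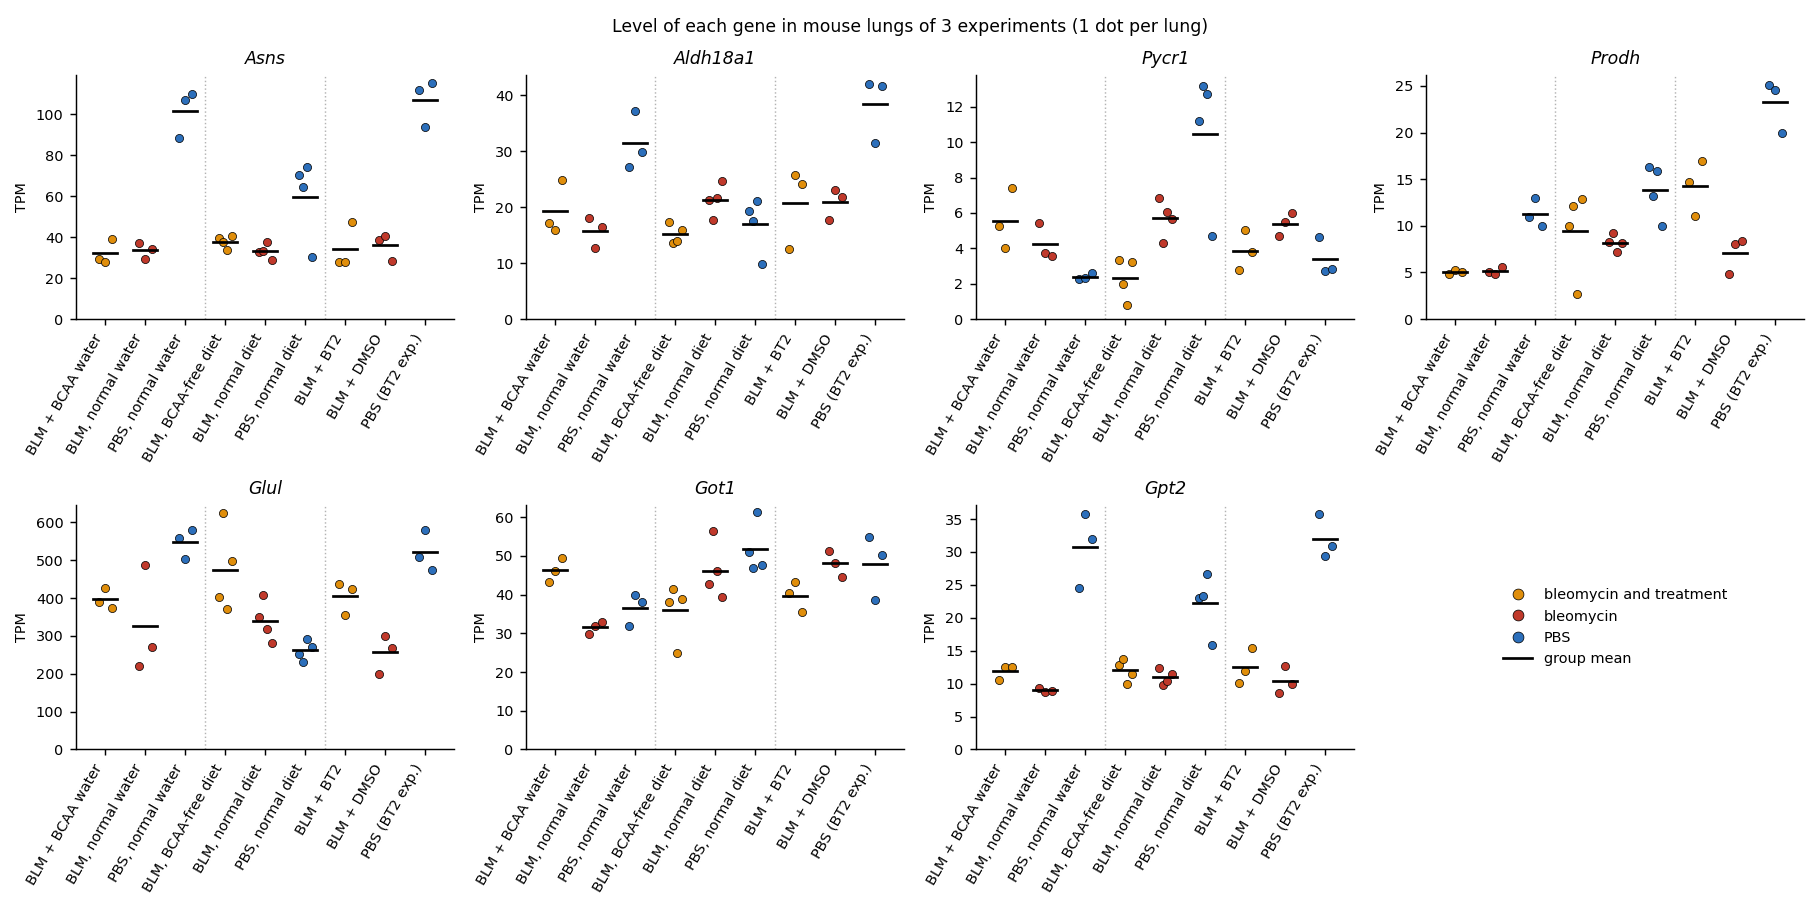
TPM of each gene (vertical axes, each starting at 0) in the 30 lungs, grouped by experiment along the horizontal axis with dotted lines between experiments, and within each the treated bleomycin, bleomycin and PBS lungs; black lines are group means. Asns and Gpt2 were separate between bleomycin and PBS in the water and BT2 experiments, where Asns stood at 28.6 to 40.8 TPM with bleomycin and 88.2 to 115 TPM with PBS.

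Asns stood at 37.4, 29.4 and 34.0 TPM with bleomycin and at 88.2, 107 and 110 TPM with PBS in the water experiment, and the groups were far apart (-1.57 ± 0.17 log2, adjusted p = 0.000152). In the BT2 experiment it stood at 38.6, 40.8 and 28.6 TPM with bleomycin and at 112, 93.8 and 115 TPM with PBS (-1.56 ± 0.23 log2, adjusted p = 0.00137). The diet experiment gave 32.7, 33.2, 37.7 and 29.0 TPM with bleomycin and 70.1, 64.5, 74.1 and 30.2 TPM with PBS. There PBS replicate 4 lay among the bleomycin lungs, and the fall was -0.76 ± 0.23 log2 with it (adjusted p = 0.0137) and -1.05 ± 0.12 log2 without it (adjusted p = 2.79e-05).

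Gpt2 followed Asns closely. In the water experiment it stood at 9.27, 8.74 and 8.87 TPM with bleomycin and at 24.6, 35.8 and 31.9 TPM with PBS (-1.66 ± 0.16 log2, adjusted p = 0.000105). The BT2 experiment gave 8.64, 12.7 and 9.96 TPM with bleomycin and 35.8, 29.4 and 30.9 TPM with PBS (-1.54 ± 0.20 log2, adjusted p = 0.0008). The diet experiment gave 12.3, 9.84, 10.4 and 11.5 TPM with bleomycin and 23.0, 23.3, 26.7 and 15.8 TPM with PBS (-0.93 ± 0.17 log2, adjusted p = 0.000361). Bleomycin and PBS lungs were separate in all 3 experiments.

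Got1 had the smallest estimates with bleomycin in the water, diet and BT2 experiments (-0.20, -0.17 and 0.02 log2). It stood at 29.9 to 32.9 TPM with bleomycin and 31.9 to 39.9 TPM with PBS in the water experiment (adjusted p = 0.304), at 39.4 to 56.4 and 47.0 to 61.4 TPM in the diet experiment (adjusted p = 0.417), and at 44.6 to 51.4 and 38.6 to 54.8 TPM in the BT2 experiment (adjusted p = 0.947). The ranges overlapped in each, and after centring the diet experiment gave -0.73 ± 0.13 log2 (adjusted p = 0.000453). Its mitochondrial partner Got2 rose with bleomycin in all 3: it averaged 35.6 ± 3.89 TPM with bleomycin and 14.4 ± 0.696 TPM with PBS in the water experiment, 49.9 ± 4.01 and 32.7 ± 4.39 TPM in the diet experiment, and 51.2 ± 11.5 and 18.6 ± 2.70 TPM in the BT2 experiment. After centring the diet experiment's difference in Got2 was 0.04 log2 and did not pass (adjusted p = 0.883).

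The proline enzymes did not move as a block in the lung either. Aldh18a1 stood at 18.0, 12.8 and 16.5 TPM with bleomycin and at 27.2, 37.2 and 29.9 TPM with PBS in the water experiment (-0.95 ± 0.20 log2, adjusted p = 0.00712). In the BT2 experiment it stood at 17.8, 23.1 and 21.9 TPM with bleomycin and at 42.1, 31.5 and 41.7 TPM with PBS (-0.84 ± 0.26 log2, adjusted p = 0.0348). That call was lost without PBS replicate 1 or 3 or bleomycin replicate 1 or 3, at -0.74 to -0.88 log2 with adjusted p of 0.0581 to 0.112. In the diet experiment its groups overlapped, at 17.8 to 24.6 TPM with bleomycin and 9.84 to 21.2 TPM with PBS (0.36 ± 0.21 log2, adjusted p = 0.15), and the sign turned after centring (-0.21 log2).

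Pycr1 did not pass in any bleomycin comparison, and its values leaned in different directions. It stood at 5.41, 3.76 and 3.57 TPM with bleomycin and at 2.27, 2.35 and 2.58 TPM with PBS in the water experiment (0.61 ± 0.22 log2, adjusted p = 0.0739), which were separate. The BT2 experiment gave 4.69, 5.51 and 6.01 TPM with bleomycin and 4.65, 2.74 and 2.81 TPM with PBS (0.56 ± 0.25 log2, adjusted p = 0.121). The diet experiment gave 6.86, 4.30, 6.04 and 5.67 TPM with bleomycin and 11.2, 13.2, 12.7 and 4.67 TPM with PBS (-0.69 ± 0.33 log2, adjusted p = 0.0868). Without PBS replicate 4, the diet difference was -1.0 ± 0.29 log2 and passed (adjusted p = 0.0113), and it passed after centring too (-1.26 ± 0.27 log2, adjusted p = 0.00188). Col1a1 rose in all 3, with 364 ± 64.6 TPM with bleomycin and 54.5 ± 14.8 TPM with PBS in the water experiment, 1328 ± 280 and 90.8 ± 18.7 TPM in the diet experiment, and 1116 ± 165 and 62.1 ± 15.9 TPM in the BT2 experiment.

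Prodh stood at 5.02, 4.88 and 5.58 TPM with bleomycin and at 11.0, 13.0 and 9.95 TPM with PBS in the water experiment (-0.99 ± 0.16 log2, adjusted p = 0.00147). In the BT2 experiment it stood at 4.83, 8.10 and 8.42 TPM with bleomycin and at 25.1, 24.6 and 20.0 TPM with PBS (-1.60 ± 0.24 log2, adjusted p = 0.00136). In the diet experiment the groups were separate, at 7.17 to 9.20 TPM with bleomycin and 9.96 to 16.3 TPM with PBS, but the difference did not pass (-0.67 ± 0.34 log2, adjusted p = 0.11). It passed after centring (-1.23 ± 0.29 log2, adjusted p = 0.00335) and in a fit of only these groups (-0.67 log2, adjusted p = 0.00333). The fit shares 1 estimate of spread with the BCAA-free diet lungs, of which replicate 3 had 2.74 TPM of Prodh, against 9.95, 12.1 and 12.9 TPM in the other lungs of its group.

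Glul was again the most abundant of the 7. It stood at 220, 487 and 270 TPM with bleomycin and at 559, 503 and 581 TPM with PBS in the water experiment (-0.83 ± 0.24 log2, adjusted p = 0.0314). The call was lost without any PBS library or without bleomycin replicate 1 or 3, at -0.59 to -0.89 log2 with adjusted p of 0.0593 to 0.101. In the BT2 experiment it stood at 199, 301 and 269 TPM with bleomycin and at 508, 580 and 475 TPM with PBS (-1.04 ± 0.18 log2, adjusted p = 0.00325). The diet experiment gave 349, 407, 318 and 282 TPM with bleomycin and 253, 230, 291 and 272 TPM with PBS, which overlapped (0.37 ± 0.18 log2, adjusted p = 0.0887). It passed as a rise in a fit of only these groups (adjusted p = 0.0327), and the sign turned after centring (-0.20 log2).

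**Figure D5:**
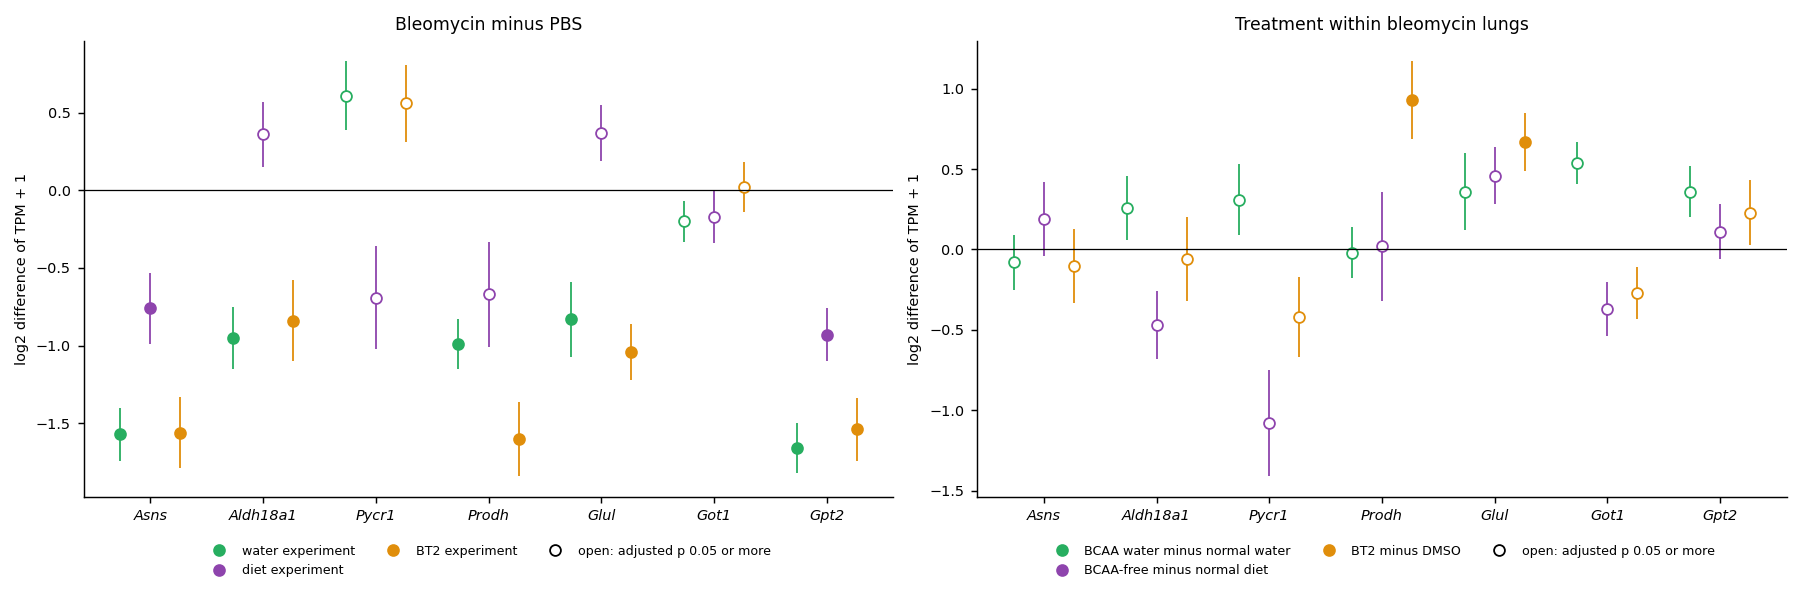
Differences on the log2(TPM + 1) scale (vertical axes) with bars of 1 SE for each of the 7 genes, at left bleomycin minus PBS in the 3 experiments and at right the treated minus the untreated bleomycin lungs; filled points passed the threshold. Asns and Gpt2 were called lower in all 3 experiments at left, and at right only Prodh (0.93 log2) and Glul (0.67 log2) passed, both with BT2.

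With BT2, 2 of the 7 passed, Prodh, which begins proline breakdown, and Glul, glutamine synthetase. Prodh stood at 14.7, 11.1 and 17.0 TPM with BT2 and at 4.83, 8.10 and 8.42 TPM with DMSO in bleomycin lungs, which were separate, a rise of 0.93 ± 0.24 log2 (adjusted p = 0.0368). Glul stood at 438, 355 and 423 TPM with BT2 and at 199, 301 and 269 TPM with DMSO, also separate, a rise of 0.67 ± 0.18 log2 (adjusted p = 0.0449). Of all genes 6.34% rose and 5.41% fell. Both calls were lost with no filter on low values (adjusted p = 0.0715 and 0.0889), in a fit of only the compared groups (0.109 and 0.117), and without DMSO replicate 1, BT2 replicate 1 or BT2 replicate 3. Without these, Prodh gave 0.71, 0.90 and 0.80 log2 with adjusted p of 0.0733, 0.109 and 0.142, and Glul gave 0.50, 0.62 and 0.64 log2 with adjusted p of 0.0999, 0.132 and 0.147. The call of Glul was lost also without DMSO replicate 3 (adjusted p = 0.0517) or BT2 replicate 2 (adjusted p = 0.0567). Alveolar type 2 markers summed to 42806 to 75294 TPM with BT2 and 2257 to 15280 TPM with DMSO, club cell markers to 50711 to 107237 and 11593 to 24637 TPM, and fibroblast markers to 443 to 1266 and 1800 to 2292 TPM, and their part in these rises was not tested. The other 5 enzymes did not pass, with Asns at 27.8, 27.7 and 47.6 TPM with BT2 and 38.6, 40.8 and 28.6 TPM with DMSO.

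With BCAA in the water none of the 7 passed in limma, beside 1.2% of all genes, and 2 (Got1 and Gpt2) had an unadjusted p under 0.05, beside 16.8% of all genes. Got1 came nearest, at 43.4, 46.1 and 49.6 TPM with BCAA water and 29.9, 32.0 and 32.9 TPM with normal water in bleomycin lungs (0.54 ± 0.13 log2, adjusted p = 0.0789). These lungs did not overlap, and the difference passed after centring (0.52 log2, adjusted p = 0.046) and with array weights (0.53 log2, adjusted p = 0.0094). Cell type markers moved in the same lungs: fibroblast markers summed to 1393 to 2011 TPM with BCAA water and 617 to 880 TPM with normal water, macrophage markers to 747 to 1024 and 491 to 695 TPM, and club cell markers to 22885 to 44095 and 50967 to 110920 TPM, none of them overlapping. Their part in the enzyme values was not tested. Gpt2 stood at 10.5 to 12.6 TPM with BCAA water and 8.74 to 9.27 TPM with normal water (adjusted p = 0.288). Glul stood at 373 to 426 and 220 to 487 TPM, and passed without normal-water replicate 2, its highest lung (0.70 log2, adjusted p = 0.0358).

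With the BCAA-free diet none of the 7 passed in limma, beside 10.1% of all genes, and 3 (Pycr1, Aldh18a1 and Glul) had an unadjusted p under 0.05, beside 25.3% of all genes. Pycr1 stood at 3.33, 2.01, 0.784 and 3.25 TPM with the BCAA-free diet and at 6.86, 4.30, 6.04 and 5.67 TPM with normal diet in bleomycin lungs. The groups were separate, and the difference was -1.08 ± 0.33 log2 (adjusted p = 0.0591), -0.80 ± 0.29 log2 without the lung that stood apart (adjusted p = 0.0822), and -0.95 ± 0.27 log2 after centring (adjusted p = 0.0366). Glul stood at 402, 625, 370 and 498 TPM with the BCAA-free diet and at 349, 407, 318 and 282 TPM with normal diet (0.46 ± 0.18 log2, adjusted p = 0.121). Without the lung that stood apart its difference was 0.57 ± 0.16 log2 and passed (adjusted p = 0.034). Col1a1, itself one of the fibroblast markers, fell there (-1.69 log2). Fibroblast markers summed to 706 to 1260 TPM with the BCAA-free diet and 1928 to 2632 TPM with normal diet. In the same order macrophage markers summed to 463 to 580 and 774 to 863 TPM. Alveolar type 2 markers summed to 39226 to 58264 and 18709 to 26320 TPM, and cardiac muscle markers to 264 to 559 and 57.3 to 106 TPM. Their part in the enzyme values was not tested.

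Related genes in the lung included the ATF4 branch, of which all 10 fell with bleomycin in the water experiment (median -1.66 log2, against 0.09 over all genes), 7 fell in the BT2 experiment (median -1.16 log2, against -0.02), and 1 rose in the diet experiment (median 0.26 log2, against 0.56). Without PBS replicate 4 of the diet experiment 1 rose and 2 fell there (median -0.01 log2, against 0.49). Chac1, which degrades glutathione, averaged 4.87 ± 1.41 TPM with bleomycin and 68.2 ± 11.9 TPM with PBS in the water experiment, and 5.33 ± 2.86 and 76.5 ± 20.5 TPM in the BT2 experiment. Gclc, the first enzyme of glutathione synthesis, averaged 320 ± 141 TPM with bleomycin and 2398 ± 319 TPM with PBS in the water experiment (-2.98 ± 0.25 log2, adjusted p = 3.96e-05). Of the other proline genes, 1 rose in the water experiment (Pepd), 1 rose and 1 fell in the BT2 experiment (Pepd and Aldh4a1), and 2 fell in the diet experiment (Oat and Aldh4a1). Over all genes, 14.8% rose and 7.08% fell in the water experiment, 17.3% and 13.3% in the BT2 experiment, and 48.7% and 12.3% in the diet experiment. Glud1, glutamate dehydrogenase, rose in all 3, with 166 ± 28.3 TPM with bleomycin and 108 ± 15.6 TPM with PBS in the water experiment (0.61 ± 0.16 log2, adjusted p = 0.0209). Gpt, the cytosolic partner of Gpt2, averaged 42.5 ± 9.08 TPM with BT2 and 7.86 ± 3.22 TPM with DMSO in bleomycin lungs (2.35 ± 0.29 log2, adjusted p = 0.00496), beside 12.5 ± 2.71 and 10.4 ± 2.05 TPM for Gpt2 (adjusted p = 0.448). Aldh4a1, which follows Prodh in proline breakdown, also rose with BT2 (26.4 ± 0.738 TPM with BT2 and 11.8 ± 5.13 TPM with DMSO, 1.19 ± 0.29 log2, adjusted p = 0.0318).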

How the data were processed

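Poly(A) RNA-seq values of 24 fibroblast libraries and 30 lungs were read from 4 tables of TPM, one per experiment, as the authors deposited them. The submitters' processing notes name FastQC, Trim Galore, HISAT2, featureCounts, Subread, DESeq2 and mm39; the sources used here do not give their versions, their roles or the annotation. No read counts were used, which leaves the depth unknown, and no counting interval or count test could be given. TPM share 1000000 per library, so a rise of abundant genes lowers the rest. The counting of reads shared by near-identical copies or overlapping genes is also not given in these sources.

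Groups came from the sample titles. The batch label is constant within a table, so each comparison lies within 1 batch, and experiments were never tested against each other. Rows with a blank symbol (0.212 to 0.367% of TPM in the lungs) were left out, and 27 to 29 repeated symbols per lung table were summed. A gene was tested where 3 or more libraries reached 1 TPM (13084 in fibroblasts, 17209, 18593 and 18151 in the water, diet and BT2 experiments). limma 3.58.1 in R 4.3.3 fitted log2(TPM + 1) with all groups of a table in 1 model and a trended prior, in 20 comparisons, two-sided, with Benjamini-Hochberg adjustment over all tested genes of each comparison. The code was tested on simulated data. With 3 against 3 libraries an exact permutation test of a single gene cannot go below 0.1. Fold changes on this scale understate those of genes near 1 TPM.

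Named genes are the 7 enzymes, genes of the listed pathways and, for each enzyme, the 3 genes with the highest Pearson correlation over the fibroblast libraries, leaving out predicted genes. The enzymes, lists and tests were chosen with earlier results of these data known. Promoters are from RefSeq, GRCm38.p6, and no coordinate was moved between builds. Alternatives were pseudocounts of 0.1 and 0.5, no filter or a filter at 5 TPM, centring (subtracting from each library its median log2 ratio to the mean of all libraries), a fit of only the groups compared, the replicate number as a block, limma array weights, and each library left out in turn. Results for some genes of the lists are not reported here, while the counts cover the whole lists. Counts of the gene lists without single libraries were added after seeing the data.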

Additional observations from a re-analysis of the deposited data

Results flagged for a closer look

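The response to TGF-β1 differed between BCAA-free and complete medium for all 7 enzymes by the test of the difference itself (limma, Benjamini-Hochberg adjusted over all genes, 3 libraries in each of 4 groups). By the same test 29.2% of all genes were higher and 18.4% lower. The call of Asns was lost with no filter on low values (adjusted p = 0.058) and in a fit of only the compared groups (adjusted p = 0.119). It was lost also without some single libraries, as given above. The response in BCAA-free medium minus that in complete medium was 2.36 log2 for Got1, 1.86 log2 for Prodh, 1.40 log2 for Gpt2, 0.89 log2 for Aldh18a1, 0.57 log2 for Asns, -0.76 log2 for Pycr1 and -1.21 log2 for Glul.

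For 3 enzymes every bleomycin lung lay above the PBS mean in at least 1 experiment and below it in another. The difference between experiments was not tested, since each experiment has a table of its own. Estimates of Got1, given above, also differed in sign but did not meet this rule. Pycr1 gave 0.61, -0.69 and 0.56 log2 in the water, diet and BT2 experiments, none of them past the threshold. Aldh18a1 gave -0.95, 0.36 and -0.84 log2 in the same order, and Glul gave -0.83, 0.37 and -1.04 log2, and for both the diet value did not pass and turned negative after centring. No library of a group of 4 lay far enough from the others to be marked as an outlier in any of the 7 enzymes.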

How the results depend on the processing

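Of 70 differences called among the 140 (7 enzymes in 20 comparisons), 61 kept their call and direction under every alternative run, 9 lost the call under at least 1, and 0 reversed; 14 that were not called passed under some alternative. The cause of these changes was not tested. Under PBS, in BCAA-free against complete medium, 0 of the 7 were called as reported. Glul was called lower with no filter on low values and with the replicate block. Asns was called higher after centring and in a fit of only these groups. With array weights both were called in these directions, while calls over all genes were 2611 against 119. The weights were uneven in some groups, so that results with them lean on 1 library there. In order of replicate they were 6.78, 0.364 and 0.346 for PBS in BCAA-free medium. For TGF-β1 in BCAA-free medium they were 0.00925, 0.163 and 23.3, and for bleomycin with normal water 0.508, 0.547 and 4.56. For BCAA returned under PBS, 2 were called with array weights, Asns lower and Glul higher. With BCAA water the number called, 0 as reported, was 1 after centring or with array weights, Got1 higher in both. For bleomycin in the diet experiment, 2 as reported, it was 5 after centring, in a fit of only these groups and with array weights, but not the same 5. After centring all 5 were lower, Got1 among them, beside 25.3% of all genes lower and 24.3% higher. In a fit of only these groups and with array weights, 4 were lower and Glul was higher (0.37 and 0.45 log2). With a lung left out the number was 2 to 3. For the BCAA-free diet, 0 as reported, it was 2 after centring (Pycr1 lower and Glul higher) and 4 with array weights (2 higher and 2 lower). For BT2, 2 as reported, it was 0 with no filter, in a fit of only these groups and with the replicate block. With 1 library left out, counts ran from 0 to 1 for BCAA water, 0 to 1 for the BCAA-free diet and 0 to 2 for BT2.

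The sign of 30 of the 140 estimates reversed under at least 1 alternative, none of them called as reported or in the reversed direction. After centring these were Aldh18a1 and Glul with bleomycin in the diet experiment (-0.21 and -0.20 log2), and Aldh18a1 with BCAA returned under PBS (-0.01) and between BCKA and BCAA (0.00). With a pseudocount of 0.1 Prodh with the BCAA-free diet gave -0.01. With array weights they were, for BCAA-free against complete medium under PBS, Aldh18a1 (-0.03), Prodh (-0.16) and Gpt2 (0.02); for BCAA returned under PBS, Prodh (0.15) and Gpt2 (-0.03); for BCKA returned under PBS, Pycr1 (0.06) and Gpt2 (-0.06); between BCKA and BCAA, Aldh18a1 (0.01) and Gpt2 (0.03); for BCAA returned against complete medium, Asns (0.12) and Got1 (0.08); for BCKA against complete medium, Got1 (0.10); for bleomycin in the BT2 experiment, Got1 (-0.11); and for BT2, Asns (0.28).

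With 1 library left out, estimates that changed sign ran, for BCAA-free against complete medium under PBS, from -0.23 to 0.22 for Prodh and -0.08 to 0.01 for Got1. With BCAA returned under PBS they ran from -0.02 to 0.04 for Aldh18a1, -0.21 to 0.25 for Prodh and -0.06 to 0.17 for Got1, and with BCKA from -0.14 to 0.32 for Prodh. Between BCKA and BCAA they ran from -0.07 to 0.04 for Aldh18a1, -0.33 to 0.00 for Prodh, -0.07 to 0.02 for Glul and -0.05 to 0.02 for Gpt2. Against complete medium they ran, with BCAA, from -0.13 to 0.14 for Asns, -0.04 to 0.11 for Pycr1, -0.06 to 0.02 for Glul and -0.09 to 0.09 for Got1, and, with BCKA, from -0.06 to 0.26 for Prodh, -0.09 to -0.00 for Glul and -0.07 to 0.11 for Got1. In the lungs they ran from -0.22 to 0.02 for Asns and -0.05 to 0.03 for Prodh with BCAA water, -0.18 to 0.45 for Prodh with the BCAA-free diet, -0.13 to 0.12 for Got1 with bleomycin in the BT2 experiment, and -0.35 to 0.03 for Asns and -0.24 to 0.25 for Aldh18a1 with BT2.

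Values that moved by over 1.5 times with the call kept were those of Prodh with TGF-β1 at a pseudocount of 0.1 (-1.61 in complete medium, -1.55 with BCKA and -1.24 with BCAA), Glul with TGF-β1 and BCKA after centring (-0.31), Asns and Gpt2 with bleomycin in the diet experiment after centring (-1.32 and -1.49), and, with array weights, Pycr1 with TGF-β1 in BCAA-free medium (0.76) and the differences in response of Asns (1.11) and Pycr1 (-0.37).

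Counts over all genes moved more. Array weights raised them to 9132 against 5856 for TGF-β1 with BCAA returned, 2611 against 119 for BCAA-free medium under PBS, 9926 against 6225 for the difference in response, 2039 against 34 and 1509 against 87 for BCAA and BCKA returned under PBS, 535 against 35 for BCKA against BCAA, 17 against 2 and 975 against 80 for BCAA and BCKA returned against complete medium, 6265 against 3773 for bleomycin in the water experiment, 2500 against 207 for BCAA water, 5788 against 1885 for the BCAA-free diet and 5098 against 2133 for BT2. A fit of only the compared groups gave 5410 against 8381 for TGF-β1 in BCAA-free medium, 4611 against 7895 for BCAA-free medium under TGF-β1, 4941 against 7646 and 56 against 87 for BCKA returned under TGF-β1 and under PBS, 120 against 35 for BCKA against BCAA, 3 against 80 and 0 against 2 for BCKA and BCAA returned against complete medium, 101 for BCAA water, 1182 for the BCAA-free diet and 232 for BT2. Other filters, pseudocounts or centring gave 40 for BCAA-free medium under PBS, 13 and 16 for BCAA returned under PBS, 0 or 1 for BCAA returned against complete medium, 45 to 348 for BCAA water, and 819 (no filter) and 3315 (centring) for BT2. With 1 library left out, BT2 gave 124 (without BT2 replicate 3) to 4927 (without DMSO replicate 2), BCAA water 14 to 597, the BCAA-free diet 903 to 2779 and bleomycin in the BT2 experiment 3303 to 7027.

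Correlations gave no sign that replicate numbers pair the samples, which does not exclude pairing. In fibroblasts the deviations of same-numbered libraries from their group means had a median correlation of 0.01 (-0.49 to 0.54). Libraries with different numbers had a median of -0.00 (-0.56 to 0.63). The median for same-numbered lungs was -0.05, -0.01 and 0.03 in the water, diet and BT2 experiments. With the replicate block, Glul passed under PBS in BCAA-free against complete medium (adjusted p = 0.0352), Prodh and Glul with BT2 did not (adjusted p = 0.0556 and 0.0652), no other of the 140 calls changed, and the count over all genes was 64 against 207 for BCAA water.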
